A study of Mus musculus with 6 samples.

Results

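Sox7, Sox17 and Sox18 form the SoxF group of transcription factors. On the Affymetrix mouse arrays of this series they were read by 5 probe sets, taken as every probe set with Sox7, Sox17 or Sox18 as its single annotated gene symbol. They are 3 of the 18193 genes that had at least 1 probe set, and all 5 probe sets passed the filter on dim values. RNA came from mouse embryonic stem (ES) cells differentiated into embryoid bodies, aggregates in which early germ layers form, and collected on day 4 as mesodermal cells with the surface receptor Flk1 (gene Kdr). SclKO (n = 2 arrays) was the Flk1+ cells of a knockout line for Scl (gene Tal1), derived from the J1 ES line of strain 129S4/SvJae. The protocol names Flk1 as its only gate, while the titles label it Scl negative. WT Scl+ (n = 2) and WT Scl- (n = 2) were the Flk1+hCD4+ and Flk1+hCD4- cells of 1 reporter line made in R1 ES cells of strain (129/Sv x 129/Sv-CP)F1. In that line a human CD4 sequence knocked in at Scl reports the gene on the cell surface. All groups passed through the same serum-containing media, with LIF before aggregation and with transferrin and ascorbic acid during it. Knockout, ES line, strain and sort gate cannot be told apart in comparisons with SclKO. The labels do not say whether replicates were separate cultures, and p-values reflect the spread of these arrays, which may be technical.

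SoxF proteins bind DNA through an HMG box and are best known in the endothelium, the lining of blood vessels. There they act with overlapping roles in vessel formation, arterial identity and lymphatic development. Sox7 is also expressed in blood and endothelial precursors of mouse embryoid bodies and is lost as blood cells mature. Sox17 is in addition a defining factor of definitive endoderm and acts in fetal blood stem cells of the mouse. Sox18 switches on Prox1 in the founders of mouse lymphatic vessels. Scl is a basic helix-loop-helix factor needed for blood formation, and the study asked which genes depend on it in Flk1+ mesoderm.

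Values are natural logs of the deposited values, and differences are in log units. The base of the deposited scale is not stated, so folds are given under both readings: 1 log unit is 2-fold if the natural log is an RMA log2 value, and 2.72-fold if the deposited values are linear. The limit for dim probe sets was each array's 40th percentile, which lay between 4.54 and 4.59. Tal1, the targeted gene, was at 5.71 and 6.14 in SclKO, 8.65 and 8.78 in WT Scl+, and 6.52 and 7.97 in WT Scl-. Kdr, the sort marker, lay between 10.83 and 11.35 on all 6 arrays. WT Scl+ replicate 2 correlated with the other 5 arrays at 0.937 to 0.964, while every other pair of arrays lay between 0.973 and 0.986 (Pearson r over 28362 probe sets, which are not independent). WT Scl- replicate 2 lay nearer to WT Scl+ than WT Scl- replicate 1 did in Tal1. The SoxF differences, the contrasts between SoxF genes and the list medians were therefore also computed without single arrays. Fewer cells of a type and less RNA per cell cannot be told apart in sorted bulk samples.

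All 3 SoxF genes were highest in WT Scl+, on every probe set. Relative to WT Scl+, the SclKO arrays were lower on 5 of 5 probe sets without overlap of the arrays, as were 18.2% of all probe sets tested. WT Scl+ was higher than WT Scl- on 5 of 5 without overlap, against 16.6% of all probe sets. None of the differences passed limma after adjustment over all 28362 probe sets, and the lowest adjusted p of a SoxF probe set was 0.202. An unadjusted p under 0.05 was found for 4 of 5 in SclKO against WT Scl+ (5.68% of all probe sets, in that direction) and 5 of 5 in WT Scl+ against WT Scl- (4.44%). Sox7 was at its lowest mean in SclKO, whereas Sox17 and Sox18 were at their lowest mean in WT Scl-.

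**Figure D1:**
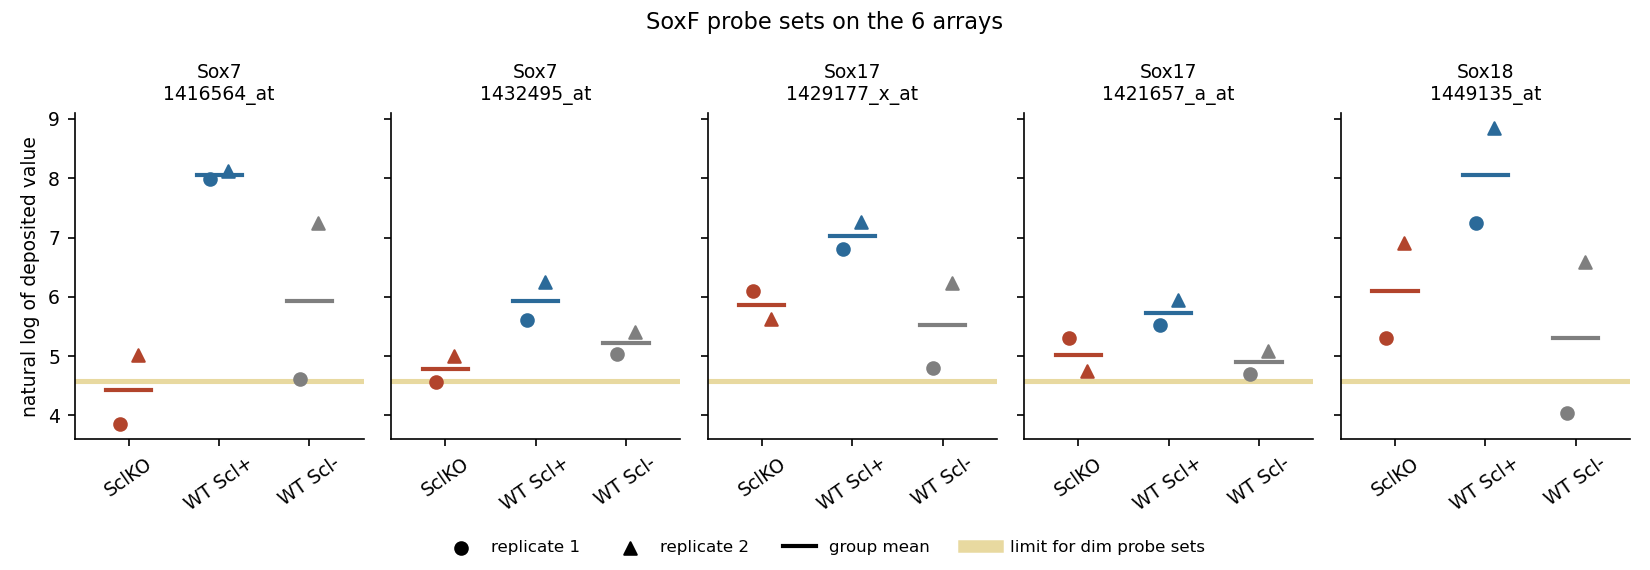
Natural log of the deposited value (vertical axis) of the 5 SoxF probe sets in SclKO, WT Scl+ and WT Scl-. Circles are replicate 1, triangles replicate 2, bars the mean of 2 arrays, and the band the limit for dim probe sets (4.54 to 4.59). WT Scl+ lies above both other groups on every probe set, and the WT Scl- arrays lie far apart for Sox7 1416564_at (4.62 and 7.24) and Sox18 (4.04 and 6.58).

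Sox7 lies on mouse chromosome 14 and was read by probe sets 1416564_at and 1432495_at. Probe set 1416564_at gave 3.85 and 5.02 in SclKO, 7.98 and 8.13 in WT Scl+, and 4.62 and 7.24 in WT Scl-. Both WT Scl+ arrays were high and nearly equal, SclKO replicate 1 lay under the limit for dim probe sets, and of the WT Scl- arrays the second was far closer to WT Scl+. The level in SclKO was 12.3-fold or 37.4-fold below that in WT Scl+ (-3.62 log units, SE 0.83, 95% interval -5.65 to -1.59, limma adjusted p = 0.202). With the dim value set to the limit the difference was -3.28 log units, which is 9.69-fold or 26.5-fold. Of the 28362 probe sets tested, the difference of -3.62 was the 25th most negative. Leaving out any 1 array kept it between -4.2 and -3.04 log units, with -3.55 without WT Scl+ replicate 2.

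WT Scl+ was higher than WT Scl- on that Sox7 probe set by 2.13 log units (SE 0.83, 4.37-fold or 8.39-fold, limma adjusted p = 0.523). Dropping WT Scl- replicate 1 gave 0.82 log units, dropping WT Scl- replicate 2 gave 3.44 and dropping WT Scl+ replicate 2 gave 2.05. SclKO overlapped with WT Scl-, with a difference of -1.49 log units (95% interval -3.52 to 0.53, limma adjusted p = 0.937). Without WT Scl- replicate 2 it was -0.18, and without replicate 1 it was -2.8. The size of both differences from WT Scl- thus varied with the WT Scl- array kept.

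The other Sox7 probe set, 1432495_at, was at 4.56 and 5.01 in SclKO, 5.61 and 6.25 in WT Scl+, and 5.04 and 5.4 in WT Scl-. The 3 groups did not overlap, with WT Scl+ highest and SclKO lowest, although the gap between SclKO and WT Scl- was 0.03 log units. SclKO stood 2.21-fold or 3.14-fold below WT Scl+ (-1.14 log units, SE 0.28, limma adjusted p = 0.219). WT Scl+ was higher than WT Scl- by 0.71 log units (SE 0.28, limma adjusted p = 0.528). SclKO and WT Scl- differed by -0.44 log units (95% interval -1.13 to 0.25, limma adjusted p = 0.947). Without WT Scl+ replicate 2 the differences on this probe set were -0.83 log units for SclKO minus WT Scl+ and 0.39 for WT Scl+ minus WT Scl-. SclKO minus WT Scl- was -0.21 without SclKO replicate 1 and -0.26 without WT Scl- replicate 2. Both Sox7 probe sets had the same order of group means, and 1416564_at gave the larger difference in every comparison. The transcript positions of these probe sets were not used here.

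Sox17 lies on chromosome 1 and was read by 1429177_x_at, whose suffix marks probes that may also bind other transcripts, and by 1421657_a_at, whose suffix marks probes shared by transcripts of 1 gene. Probe set 1429177_x_at gave 6.1 and 5.63 in SclKO, 6.8 and 7.26 in WT Scl+, and 4.8 and 6.24 in WT Scl-. All 6 arrays were above the limit for dim probe sets, WT Scl+ lay above both other groups, and SclKO lay within the range of WT Scl-. SclKO was 2.24-fold or 3.2-fold below WT Scl+ (-1.16 log units, SE 0.48, limma adjusted p = 0.383). WT Scl+ was higher than WT Scl- by 2.84-fold or 4.52-fold (1.51 log units, SE 0.48, limma adjusted p = 0.471), and by 0.78 log units without WT Scl- replicate 1. SclKO and WT Scl- differed by 0.35 log units (95% interval -0.81 to 1.5, limma adjusted p = 0.985), a difference that was -0.38 without WT Scl- replicate 1. Without WT Scl+ replicate 2, SclKO minus WT Scl+ was -0.94 and WT Scl+ minus WT Scl- was 1.28 log units.

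Probe set 1421657_a_at of Sox17 was at 5.3 and 4.75 in SclKO, 5.52 and 5.94 in WT Scl+, and 4.7 and 5.09 in WT Scl-. It repeated the order seen on the first Sox17 probe set, over a smaller range. The difference was -0.71 log units between SclKO and WT Scl+ (SE 0.27, limma adjusted p = 0.357), and 0.83 between WT Scl+ and WT Scl- (SE 0.27, limma adjusted p = 0.473). SclKO minus WT Scl+ became -0.44 log units without SclKO replicate 2 and -0.5 without WT Scl+ replicate 2, where WT Scl+ minus WT Scl- was 0.62. SclKO minus WT Scl- gave 0.12 log units (95% interval -0.53 to 0.78, limma adjusted p = 0.995). On both Sox17 probe sets SclKO replicate 1 was higher than SclKO replicate 2, by 0.47 and 0.55 log units, while in both WT groups replicate 2 was the higher array.

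Sox18 lies on chromosome 2 and was read by 1449135_at alone. Its values were 5.3 and 6.9 in SclKO, 7.25 and 8.85 in WT Scl+, and 4.04 and 6.58 in WT Scl-. Replicate 2 was higher than replicate 1 in every group, by 1.6 log units in SclKO, 1.59 in WT Scl+ and 2.54 in WT Scl-. Both WT Scl+ arrays exceeded all others, and SclKO and WT Scl- overlapped. WT Scl+ was higher than WT Scl- by 6.66-fold or 15.4-fold (2.74 log units, SE 0.98, limma adjusted p = 0.499), the 20th most positive of 28362 differences. With WT Scl- replicate 1, which was dim, set to the limit, the difference was 2.47 log units. Dropping WT Scl- replicate 1 gave 1.47 log units, dropping WT Scl- replicate 2 gave 4.01 and dropping WT Scl+ replicate 2 gave 1.94. The SclKO level was 3.86-fold or 7.03-fold below WT Scl+ (-1.95 log units, SE 0.98, 95% interval -4.34 to 0.44, limma adjusted p = 0.465). Without WT Scl+ replicate 2, or without SclKO replicate 1, this difference was -1.15 log units. SclKO minus WT Scl- was 0.79 log units (95% interval -1.6 to 3.18, limma adjusted p = 0.983), and -0.48 without WT Scl- replicate 1.

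**Figure D2:**
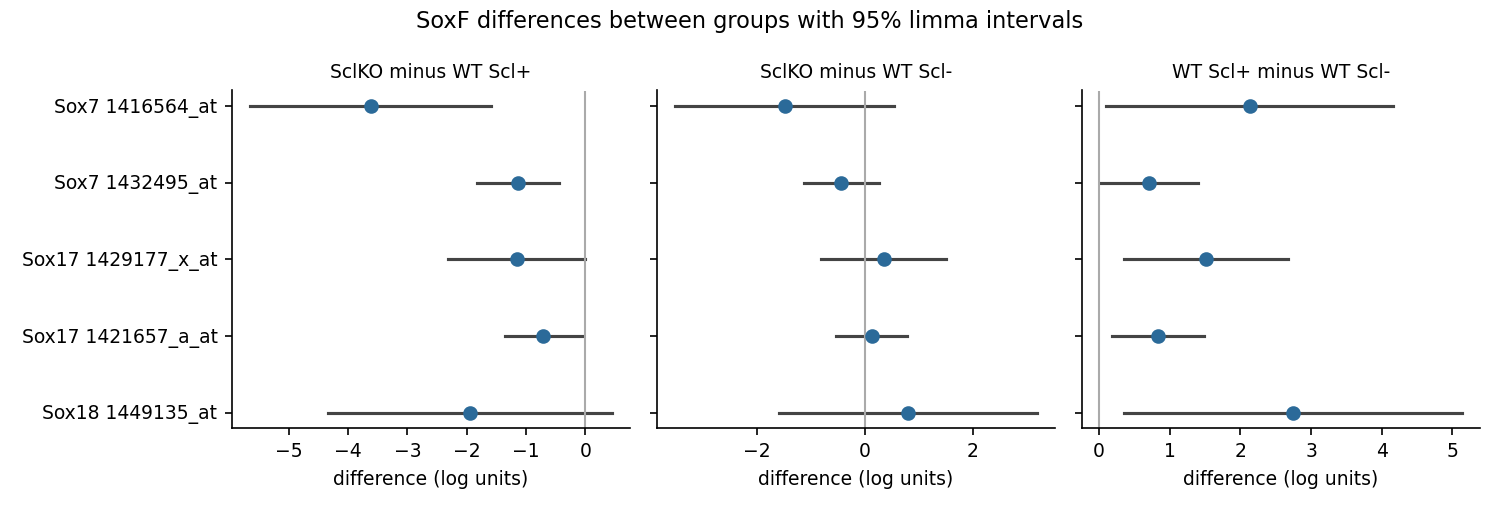
Differences between group means (horizontal axis, log units; points) with 95% limma intervals (lines) for the 5 SoxF probe sets in each comparison. All 5 differences are negative for SclKO minus WT Scl+ (-3.62 to -0.71) and positive for WT Scl+ minus WT Scl- (0.71 to 2.74), and every interval of SclKO minus WT Scl- includes 0.

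SclKO against WT Scl- compares all Flk1+ cells of the knockout line with the reporter-negative WT cells. Here 1 of the 5 SoxF probe sets, 1432495_at of Sox7, was lower in SclKO without overlap of the arrays, against 19.5% of all probe sets, and 0 were higher, against 21.7%. By limma 0 of the 5 passed after adjustment and 0 had an unadjusted p under 0.05, which 2.77% of all probe sets had in the lower and 2.70% in the higher direction. Across all probe sets, limma called 0.0106% in SclKO against WT Scl+, 0% in WT Scl+ against WT Scl- and 0.0106% in SclKO against WT Scl-. These comparisons share arrays, so their differences are not independent. Residual SD had a median of 0.21 log units across probe sets, whereas it was 1.17 for Sox7 1416564_at, 0.65 for Sox17 1429177_x_at and 1.39 for Sox18.

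The 3 genes were then set against each other within each array, on the probe set of each gene with the highest mean. The offset between probe sets has no meaning, so only its change between groups is read. Sox7 minus Sox18 was -1.45 and -1.88 log units in SclKO, 0.73 and -0.71 in WT Scl+, and 0.58 and 0.66 in WT Scl-. On these probe sets both SclKO arrays lay below all 4 WT arrays. The mean was -1.66 ± 0.31 in SclKO, 0.01 ± 1.02 in WT Scl+ and 0.62 ± 0.06 in WT Scl- (SD, n = 2 each). SclKO thus differed from WT Scl- by -2.28 log units and from WT Scl+ by -1.67. On the other Sox7 probe set, 1432495_at, SclKO minus WT Scl+ was -1.14 log units, less negative than the -1.95 of Sox18. The sign of the Sox7 minus Sox18 difference between SclKO and WT Scl+ thus depends on the Sox7 probe set. Sox7 minus Sox17 was -2.25 and -0.61 in SclKO, 1.18 and 0.88 in WT Scl+, and -0.18 and 0.99 in WT Scl-. The difference of SclKO was -2.46 log units from WT Scl+ and -1.84 from WT Scl-, both without overlap. With Sox7 read on 1432495_at, SclKO minus WT Scl+ was -1.14 log units, nearly equal to the -1.16 of Sox17 1429177_x_at. In SclKO minus WT Scl- these 2 probe sets were at -0.44 and 0.35. The size of the Sox7 minus Sox17 differences thus also depends on the Sox7 probe set. Sox7 1416564_at in SclKO replicate 1 and Sox18 in WT Scl- replicate 1 were dim. The contrasts on the probe sets with the highest mean thus rest in part on values under the limit. With those values at the limit, Sox7 minus Sox18 was -0.76 and -1.88 in SclKO, 0.73 and -0.71 in WT Scl+, and 0.04 and 0.66 in WT Scl-, which leaves SclKO replicate 1 next to WT Scl+ replicate 2. The Sox7 minus Sox18 difference of SclKO was then -1.33 from WT Scl+ and -1.67 from WT Scl-, and for Sox7 minus Sox17 it was -2.11 and -1.49. Without WT Scl+ replicate 1, Sox7 minus Sox18 differed by -0.95 between SclKO and WT Scl+. For Sox18 minus Sox17, SclKO (-0.8 and 1.27) overlapped with both WT Scl+ (0.45 and 1.59) and WT Scl- (-0.75 and 0.34). With 2 arrays against 2, an exact two-sided permutation test cannot give a p below 0.333, which the non-overlapping contrasts reached (adjusted p = 0.599 over 9 tests).

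**Figure D3:**
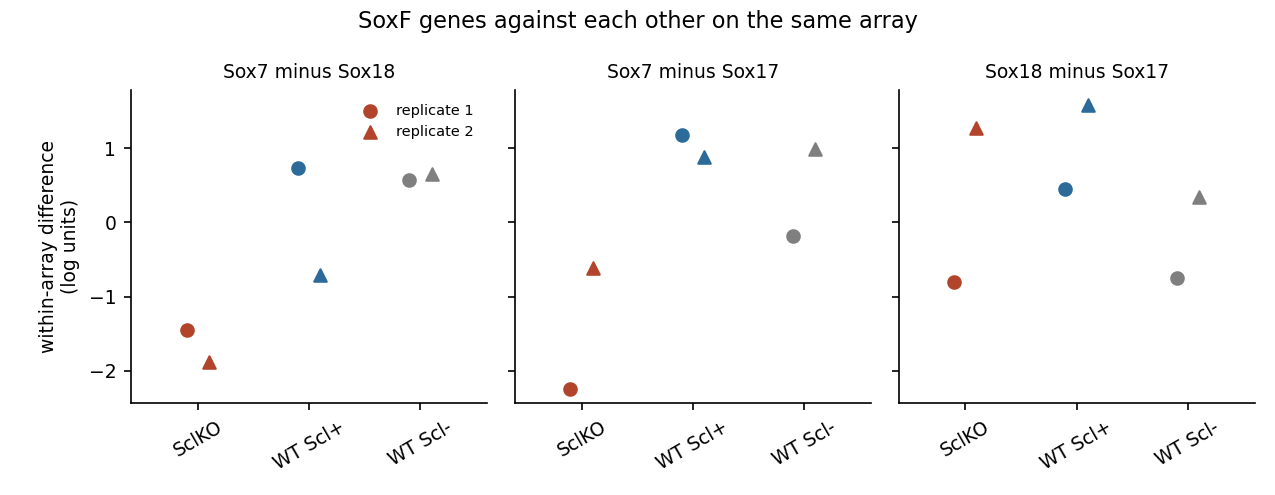
Within-array differences between SoxF genes (vertical axis, log units) in SclKO, WT Scl+ and WT Scl-, with circles for replicate 1 and triangles for replicate 2. Each gene is read on its probe set with the highest mean only. Sox7 minus Sox18 is lower on both SclKO arrays (-1.45 and -1.88) than on any WT array (-0.71 to 0.73), but SclKO replicate 1 is at -0.76 once its dim Sox7 value is set to the limit.

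The other Sox genes, which share the HMG box but belong to other subgroups, served as a comparison. Of 16 listed, 12 passed the filter on dim values. In SclKO against WT Scl+ their median difference was 0.22 log units, with 8 positive (55.5% of all genes) and 4 negative (44.5%), against a median of 0.038 over the 12922 genes tested. The median of the 12 ran from 0.1 without WT Scl+ replicate 1 to 0.32 without SclKO replicate 2. No other Sox gene was lower in SclKO without overlap, and 4 were higher, where 20.2% of all genes were lower and 23.2% higher. Sox9, a regulator of cartilage and neural crest, was at 8.21 in SclKO and 6.71 in WT Scl+ (means, n = 2 each; difference 1.5, SE 0.38, limma adjusted p = 0.223). Sox2, a factor of pluripotent and neural cells, differed by 1.09 log units (SE 0.92) and by 0.23 with dim values set to the limit. Sox11, a SoxC factor of progenitor cells, differed by 0.81 (SE 0.36). In WT Scl+ against WT Scl- the median of the 12 genes was -0.1 log units, 1 gene was higher without overlap (18.9% of all genes) and 1 lower (18.5%). That median ran from -0.12 without WT Scl+ replicate 2 to 0 without WT Scl- replicate 2. The largest differences there were Sox9 at -1.35 log units (SE 0.38, limma adjusted p = 0.446), Sox2 at 0.81 (0.62 at the limit) and Sox11 at -0.62. In SclKO against WT Scl- the 12 genes had a median of 0.1 log units, led by Sox2 at 1.9 (SE 0.92), Sox4 at 0.35 and Sox11 at 0.19. Both WT Scl- arrays were dim for Sox2 (3.99 and 3.07), and with dim values set to the limit its difference was 0.85. Whether SoxF genes differ from the other Sox genes as a group was not tested.

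**Figure D4:**
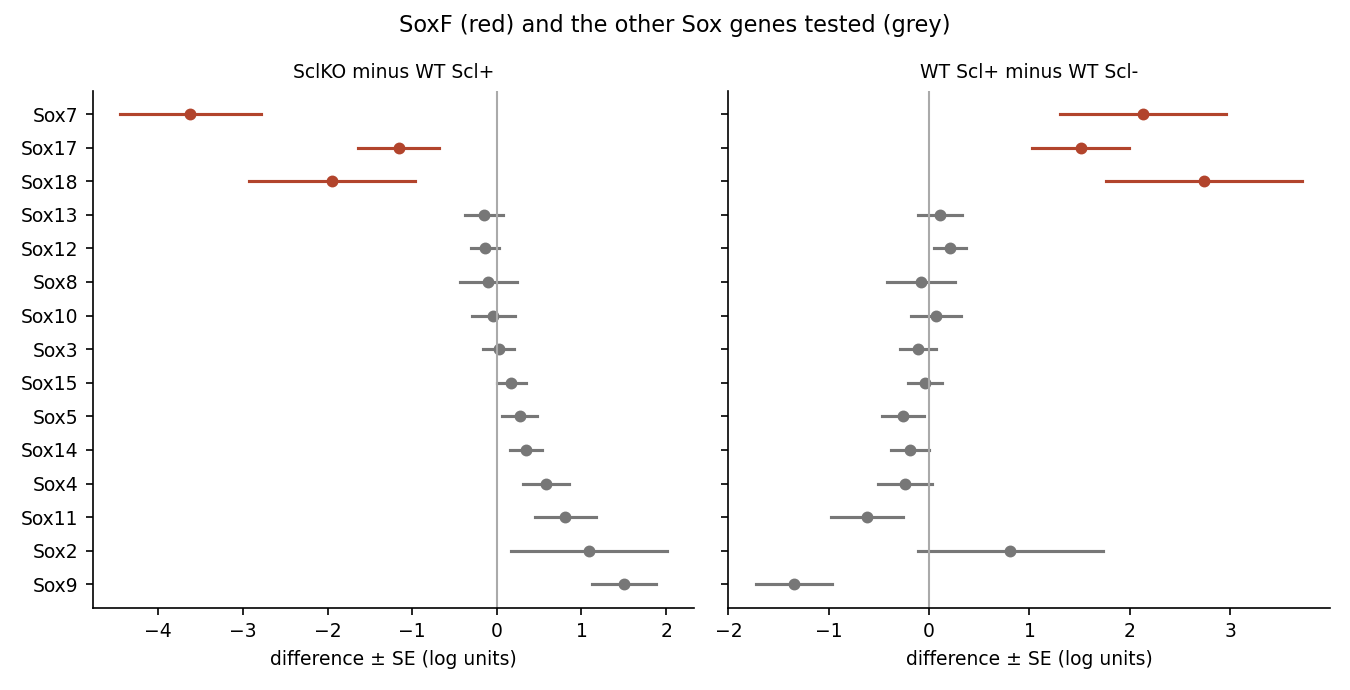
Differences ± SE (horizontal axis, log units) of the 3 SoxF genes (red) and the 12 other Sox genes tested (grey) in SclKO minus WT Scl+ and WT Scl+ minus WT Scl-. SoxF genes lie at -3.62 to -1.16 on the left, where the other Sox genes span -0.15 to 1.5, and at 1.51 to 2.74 on the right, where the others span -1.35 to 0.81.

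Of 6 endothelial genes reported as direct targets of SoxF factors, 4 passed the filter, and Vcam1 and Dll4 did not. Their median difference was -1.13 log units in SclKO against WT Scl+, 1.07 in WT Scl+ against WT Scl- and 0.05 in SclKO against WT Scl-. Prox1, a homeobox factor of lymphatic and heart development, was at 6.42 and 6.85 in SclKO, 8.25 and 7.92 in WT Scl+, and 7 and 7.12 in WT Scl-. Its 3 groups did not overlap, with a difference of SclKO from WT Scl+ of -1.45 (SE 0.21, limma adjusted p = 0.136). WT Scl+ was higher than WT Scl- in Prox1 by 1.02 log units (SE 0.21, limma adjusted p = 0.439). Cdh5, the adhesion molecule of endothelial junctions, was at 5.82 and 6.77 in SclKO, 7.48 and 8.61 in WT Scl+, and 5.51 and 7.47 in WT Scl-. WT Scl+ replicate 1 and WT Scl- replicate 2 were almost equal, with a difference of SclKO from WT Scl+ of -1.75 (SE 0.72, limma adjusted p = 0.383). Cldn5, a tight-junction protein, was at 5.27 and 5.29 in SclKO, 5.86 and 6.32 in WT Scl+, and 4.28 and 5.67 in WT Scl-. Notch1, a receptor of arterial fate, was opposite in sign in SclKO against WT Scl+, at 0.22 log units (SE 0.18). By limma 0 of these 4 genes passed after adjustment, and 2 had an unadjusted p under 0.05 in each comparison with WT Scl+. They were Prox1 and Cdh5, lower in SclKO against WT Scl+ (6.24% of all genes at that p), and Prox1 and Cldn5, higher in WT Scl+ against WT Scl- (5.19%). Without WT Scl- replicate 1 the median of the 4 was 0.5 in WT Scl+ against WT Scl-.

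Promoter windows of GRCm38.p6, from 250 bases before to 50 after the gene start, were searched for 13 of the SoxF targets and nearest genes. The targets Vcam1 and Cdh5 and the nearest genes Clic6, Mtus1, Arap3, Esam and Ecscr were not searched. Those of 3 genes are shown, chosen after the search: Prox1 and Cldn5 as reported SoxF targets, and Rhoj as one of the genes nearest to Sox18 in profile. Each window was searched on both strands for AACAAT and ACAAAG, forms of the motif that Sox HMG boxes bind, with matches on either strand in capitals. Of 32851 such windows, 10.7% hold AACAAT, 18.7% hold ACAAAG and 27% hold either. Of the 15 windows searched, 3 (20%) hold either, in Prox1, Rhoj and Myb, while the targets Notch1, Dll4 and Cldn5 have neither. Prox1 has windows at 2 starts, of which the one shown holds ACAAAG and the other neither motif. A match describes these letters only.
Prox1, chr1:190169466-190169765, minus strand: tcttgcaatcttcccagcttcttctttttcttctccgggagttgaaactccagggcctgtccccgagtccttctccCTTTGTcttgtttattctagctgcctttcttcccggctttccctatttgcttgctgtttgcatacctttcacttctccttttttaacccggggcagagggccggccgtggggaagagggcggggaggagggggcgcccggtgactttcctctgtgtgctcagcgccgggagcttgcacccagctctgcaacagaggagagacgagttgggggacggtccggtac
Rhoj, chr12:75308063-75308362, plus strand: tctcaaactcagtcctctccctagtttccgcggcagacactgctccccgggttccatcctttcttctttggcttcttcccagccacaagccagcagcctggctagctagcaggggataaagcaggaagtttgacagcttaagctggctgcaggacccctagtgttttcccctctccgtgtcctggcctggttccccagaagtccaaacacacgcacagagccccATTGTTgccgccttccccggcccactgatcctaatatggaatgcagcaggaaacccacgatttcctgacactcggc
Cldn5, chr16:18776597-18776896, plus strand: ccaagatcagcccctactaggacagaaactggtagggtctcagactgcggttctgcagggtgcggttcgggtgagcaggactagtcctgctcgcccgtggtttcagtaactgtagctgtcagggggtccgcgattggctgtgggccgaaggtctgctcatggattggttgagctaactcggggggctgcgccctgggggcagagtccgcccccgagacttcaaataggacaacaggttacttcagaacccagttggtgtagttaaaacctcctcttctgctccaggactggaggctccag
The Cldn5 window holds neither motif and so has no capitals. Promoters of Sox7, Sox17 and Sox18 are not shown.

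Genes with the most similar profile were found by the root-mean-square difference over the 6 arrays, after each gene was centred on its own mean. The search covered 12921 other genes per SoxF gene, and the values describe these arrays without a test. Nearest to Sox7 were Wnk4, a kinase of ion transport (0.27 log units), Tnfaip2 (0.31), the manganese transporter gene Slc30a10 (0.34), Myb, a factor needed for definitive blood (0.41), and Clic6 (0.41). Wnk4 was at 4.51 and 5.4 in SclKO, 8.98 and 9.21 in WT Scl+, and 5.01 and 8.07 in WT Scl-, with the same single high WT Scl- array as Sox7. Nearest to Sox17 were Cldn5 (0.23), Rasip1, a gene of vessel lumen formation (0.26), Exoc6, a subunit of the exocyst (0.26), Ppp1r13b (0.28) and Frrs1 (0.28). Nearest to Sox18 were Mtus1 (0.33), Rhoj, a gene active in endothelium (0.38), Arap3 (0.39), Esam, an endothelial adhesion molecule (0.41), and Ecscr, an endothelial surface gene (0.44). Rhoj was at 6.69 and 7.61 in SclKO, 8.19 and 9.4 in WT Scl+, and 5.62 and 7.3 in WT Scl-. The SoxF genes were less alike than this: the distance was 1.06 log units between Sox7 and Sox18, 1.2 between Sox7 and Sox17 and 0.91 between Sox17 and Sox18. Among the 12921 genes ordered by likeness to Sox7, Sox18 stood 127th and Sox17 191st. In the order for Sox18, Sox17 stood 86th and Sox7 195th. In the order for Sox17, whose own differences were smaller, Sox18 stood 9731st and Sox7 12520th. The distance depends on the size of the differences as well as on their pattern, and these orders were made over the 6 arrays alone.

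Endothelial markers, which mark cells where SoxF genes are known to act, are given beside the SoxF values. The mean over 10 tested endothelial markers was 5.79 and 6.6 in SclKO, 7.63 and 8.42 in WT Scl+, and 5.46 and 7.23 in WT Scl-. WT Scl- replicate 1 was the lowest array and both WT Scl+ arrays were the highest, as for Sox17 and Sox18. In SclKO against WT Scl+, 10 of 10 endothelial markers were negative, with a median of -1.86 log units, where 44.5% of all genes were negative. The largest differences were those of Tek (-2.84, SE 1.32) and Ramp2 (-2.74, SE 0.81). Sox7, on its probe set with the highest mean, was more negative than all 10, at -3.62 and at -3.28 with its dim value at the limit. The other Sox7 probe set, 1432495_at, gave -1.14 log units, less negative than the list median of -1.86. In WT Scl+ against WT Scl- the same list was positive in 10 of 10 (46.1% of all genes), with a median of 1.53 log units, and Tek (3.25, SE 1.32, 2.93 at the limit) was the only one above Sox18 (2.74, 2.47 at the limit). Without WT Scl- replicate 1 that median was 0.9, and without WT Scl- replicate 2 it was 2.47. SclKO against WT Scl- had a median of -0.15, which was -1.03 without WT Scl- replicate 1 and 0.71 without WT Scl- replicate 2. By limma 0 of the 10 passed after adjustment in either comparison, and 8 had an unadjusted p under 0.05 in each, where 6.24% of all genes were lower in SclKO against WT Scl+ and 5.19% higher in WT Scl+ against WT Scl- at that p. Over these genes limma called 0.00774% and 0%. The part of endothelial cell content in the SoxF differences was not tested.

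The 16 transcription factors of blood and endothelium listed around SoxF differed by a median of -2.33 log units between SclKO and WT Scl+ and 1.84 in WT Scl+ against WT Scl-. In SclKO against WT Scl+, 14 were lower without overlap (20.2% of all genes) and 1 was higher. The most negative were Cbfa2t3 (-4.77 log units, SE 0.73), Myb (-4.42, SE 0.76) and Ikzf1 (-3.66, SE 0.65), beside -3.62 for Sox7. Dim values enter all of these, and at the limit they were -4.43, -4.14, -3.64 and -3.28, where Fli1 (-3.58, above the limit on all 6 arrays) was also more negative than Sox7. The other Sox7 probe set, 1432495_at, was at -1.14 log units in SclKO against WT Scl+, less negative than the list median of -2.33. In SclKO against WT Scl- the median of the 16 factors was -0.54 log units. It was -1.29 without WT Scl- replicate 1 and 0.26, with 9 of 16 positive, without WT Scl- replicate 2. Cbfa2t3 (-2.1) and Myb (-1.89) were again more negative than Sox7 (-1.49) in this comparison, while Sox17 (0.35) and Sox18 (0.79) lay above 0. Without WT Scl- replicate 1, Sox7 was at -2.8, Sox17 at -0.38 and Sox18 at -0.48. Without WT Scl- replicate 2 they were at -0.18, 1.07 and 2.06. Sox7 1432495_at was at -0.44 over all arrays. The mean level of the 16 factors was 6.13 and 6.46 in SclKO, 8.5 and 8.73 in WT Scl+, and 6.11 and 7.69 in WT Scl-. The 8 primitive blood markers had a mean level of 4.83 and 4.96 in SclKO, 6.97 and 6.5 in WT Scl+, and 5.04 and 5.54 in WT Scl-. They differed between SclKO and WT Scl+ by a median of -1.71 log units, led by the embryonic globin gene Hbb-bh1 (-3.54, SE 0.54), Gata1 (-2.49) and Gfi1b (-2.47).

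Endoderm is the other tissue known for Sox17. The 9 endoderm markers tested had a mean level of 6.66 and 6.63 in SclKO, 6.46 and 5.62 in WT Scl+, and 6.16 and 5.91 in WT Scl-. In SclKO against WT Scl+, where Sox17 was at -1.16 log units, their median was 0.34, with 8 positive (55.5% of all genes) and 1 negative, and without WT Scl+ replicate 2 it was 0.12, with 5 positive and 4 negative. In WT Scl+ against WT Scl-, where Sox17 was at 1.51, their median was 0.22, with 5 positive (46.1% of all genes) and 4 negative. That median changed sign with the array left out. It was -0.17 without WT Scl- replicate 2 and -0.13 without WT Scl+ replicate 1, but 0.3 without WT Scl- replicate 1 and 0.62 without WT Scl+ replicate 2. Between SclKO and WT Scl-, where Sox17 was at 0.35, their median was 0.71, and 7 of 9 were higher in SclKO without overlap (22.9% of all genes). In SclKO against WT Scl+, Gsc, also a streak gene, led with 2.66 log units (SE 0.4, limma adjusted p = 0.136). It was followed there by Trh (1.04, SE 0.7) and Cer1 (0.91, SE 0.53). Foxa2, a factor that defines endoderm, was at 5.94 and 5.75 in SclKO, 5.72 and 5.29 in WT Scl+, and 5.32 and 4.88 in WT Scl-. Foxa1, Afp and Amn did not pass the filter on dim values. The part of endoderm cells in the Sox17 values was not tested.

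**Figure D5:**
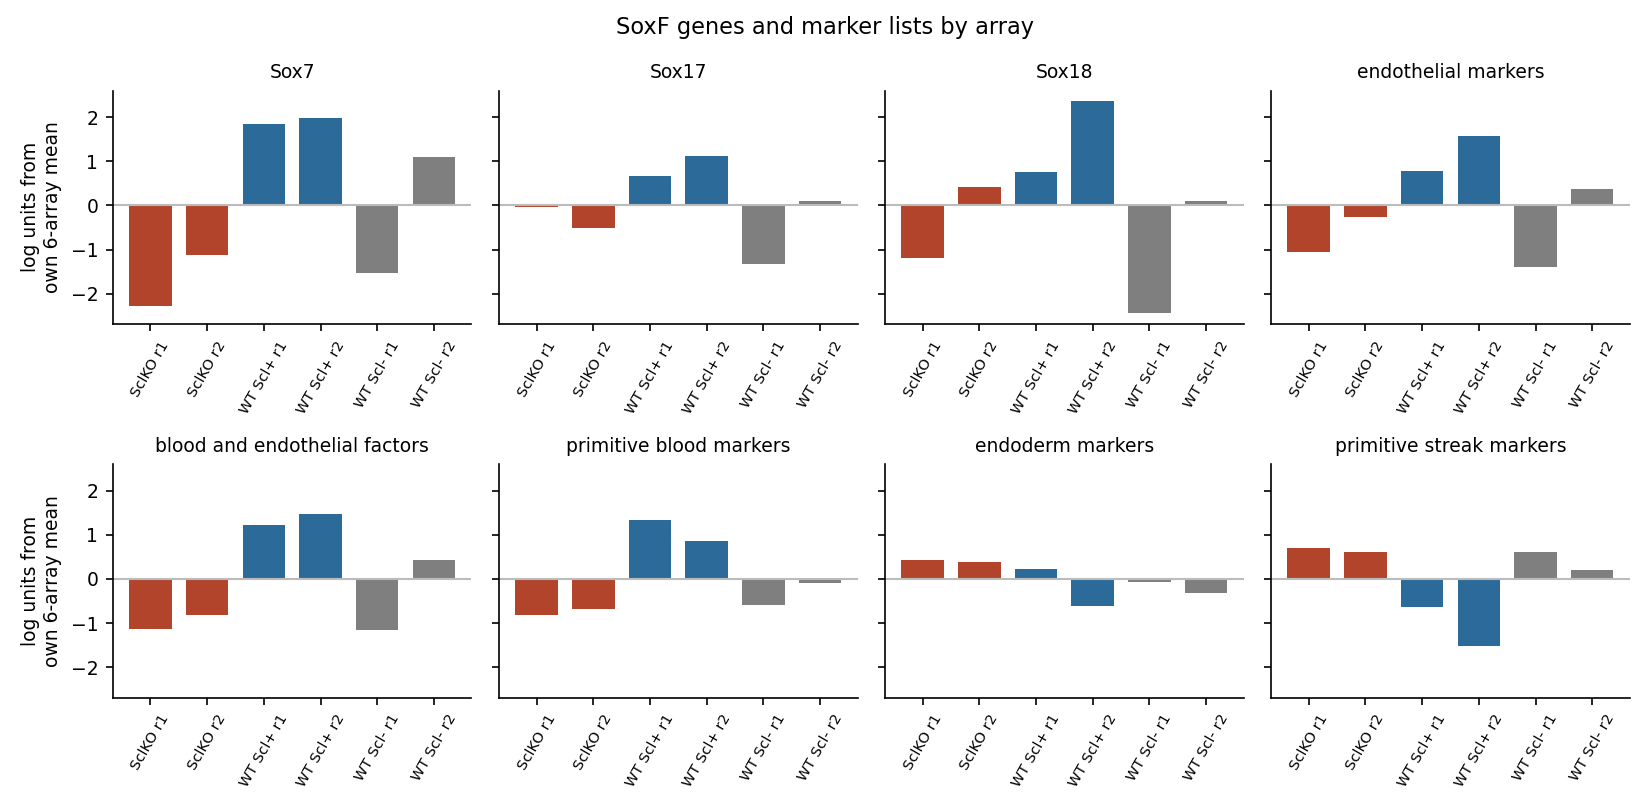
Levels of the 3 SoxF genes and mean levels of 5 gene lists on each array (bars, log units from the mean of the 6 arrays; r1 and r2 are the replicates). WT Scl+ arrays are high and WT Scl- replicate 1 is low for the SoxF genes, the endothelial markers and the blood and endothelial factors, while the primitive streak markers are lowest on WT Scl+ replicate 2 (7.1 as a mean level).

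VEGF and Notch signalling, which act beside SoxF in arterial vessels, had differences of both signs. Of 14 members tested, 8 had a positive and 6 a negative difference in SclKO against WT Scl+, with a median of 0.19 log units, or 0.04 without WT Scl+ replicate 2. Hey2, a Notch target of arteries and heart, differed by -1.85 log units (SE 0.32, limma adjusted p = 0.148), Flt1, a VEGF receptor, by -1.51 (SE 0.61), and the ligand gene Vegfc by 1.26 (SE 0.35). In WT Scl+ against WT Scl- the median was 0.1 log units, with Flt1 at 1.51 (SE 0.61), Vegfc at -1.15 (SE 0.35) and the receptor gene Flt4 at 1.13 (SE 0.59). The primitive streak markers had differences opposite in sign to SoxF, with 7 of 7 tested positive in SclKO against WT Scl+ (median 1.45 log units) and 7 of 7 negative in WT Scl+ against WT Scl- (median -1.47, where 53.9% of all genes were negative). Mixl1, a mesendoderm factor, was at 2.61 and -1.92 log units in these comparisons (SE 0.33), and Eomes by 2.39 and -1.97. By limma 0 members of these lists passed after adjustment over all probe sets.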

How the data were processed

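Total RNA was hybridised to 6 Affymetrix arrays, 2 a group, with groups and replicate numbers read from the sample titles. The deposited values are normalised probe set values of unstated base. The submitters' processing notes list limma, RMA and affy without versions or order. RMA includes quantile normalisation, which removes a shift common to all genes. The natural log was taken here. Of 45101 probe sets, 64 were controls and left out. Those brighter than the 40th percentile of the array on 2 or more arrays were tested (28362). Group means were fitted to the 6 arrays in limma 3.58.1 (R 4.3.3), with 3 residual and 3.13 prior degrees of freedom, with two-sided eBayes tests and Benjamini-Hochberg adjustment over every probe set tested, calls being at an adjusted p under 0.05. The fit was tested on simulated data. For lists, each gene was read on its probe set with the highest mean. By platform annotation 34958 probe sets had 1 symbol, 932 had several and 9211 had none; 34754 were updated through Entrez identifiers. Members and lists were chosen with earlier results of these data known. Named were all members, Tal1, Kdr, the 5 nearest genes by profile, and the list members with the largest differences, up to 3 per comparison; Foxa2 in the endoderm list, Cldn5 levels and promoters were added after values were seen. The number of arrays limits the precision. Alternatives were other filters, normalisations, spread estimates, 1 probe set a gene, the replicate number as a block and leaving out each array.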

Additional observations from a re-analysis of the deposited data

How the results depend on the processing

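Under alternatives, 71 of 71 SoxF differences kept their direction in SclKO minus WT Scl+ and 71 of 71 in WT Scl+ minus WT Scl-. In SclKO minus WT Scl- 66 of 71 did. Most of these alternatives could not reverse a direction in the first 2 comparisons. Changes of the filter, the spread estimate or the third group leave the difference itself as it was. The arrays of those comparisons did not overlap, so leaving out an array could not reverse it either. No alternative brought a SoxF probe set past the threshold. The 5 reversals in SclKO minus WT Scl- were Sox17 1421657_a_at at -0.07 without WT Scl- replicate 1 and -0.15 without SclKO replicate 1, Sox17 1429177_x_at at -0.38 and Sox18 at -0.48 without WT Scl- replicate 1, and Sox18 at -0.01 without SclKO replicate 2; each leaves 1 array in a group, assumed to vary like the other groups. Over all arrays left out these differences ran up to 0.4 for 1421657_a_at, 1.07 for 1429177_x_at and 2.06 for Sox18. Replicate numbers come from titles that state no shared culture or day. Deviations of same-numbered arrays correlated at 0.21 to 0.24 between groups, over probe sets. With the replicate number as a block the Sox18 SE was 0.28 (adjusted p = 0.085 for SclKO minus WT Scl+, 0.173 for WT Scl+ minus WT Scl-) and the count of probe sets called in SclKO minus WT Scl+ was 6, against 3 in the fit without it. That count was 1 with 1 probe set a gene (fewer tested), 27 with only the 2 groups compared, 37 with an intensity trend, and 0 to 1179 when an array was left out, the highest without WT Scl+ replicate 1. In SclKO minus WT Scl- it was 3, but 6 with the stricter filter, 6 with dim values set to the limit, 1 with 1 probe set a gene, 11 with the trend and 0 to 3 when an array was left out. In WT Scl+ minus WT Scl- it was 0, and 0 to 46 when an array was left out. Alternatives chosen after seeing the data left out arrays from the contrasts between SoxF genes. Sox7 minus Sox18 in WT Scl+ minus WT Scl- then ran from -1.33 to 0.11, and Sox18 minus Sox17 from -1.82 to 0.25 in SclKO minus WT Scl+ and from -0.59 to 1.48 in SclKO minus WT Scl-, where it was -0.11 without WT Scl- replicate 1; these contrasts overlapped between groups. The cause of these changes was not tested.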
